A study of Mus musculus with 60 samples.

Results

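The circadian clock and output genes Ciart, Per1, Per2, Per3, Dbp, Tef, Hlf, Nr1d1, Nr1d2 and Npas2 were described in mouse lung after inhalation of superparamagnetic iron oxide (SPIO) nanoparticles. These 10 genes were taken by their symbol in the array annotation, all 10 were measured, and they stood among 18193 genes in all. They were chosen with earlier results of these data known, so the counts of members below are descriptions. RNA of the right diaphragmatic lung lobe had been hybridized, with 1 Affymetrix mouse genome array per mouse, for 60 male Balb/c mice. The mice had sat in nose-only tubes for 4 h, 30 of them in SPIO aerosol (total inhaled mass 365 µg) and 30 as sham controls in the same humidified mixture of helium, oxygen and filtered air without particles. Lungs were taken from 5 mice of each arm at 0, 6, 24, 48, 96 and 168 h after that exposure, which gave 12 groups. The mice of both 96 h groups had also been measured in plethysmographs before and during the exposure, and those of both 168 h groups were housed in metabolism cages with liquid diet. The mice carried no transgene or deletion that the labels name, their age is not given there, and the clock time of sampling and the hybridization batch are not given in the sources used here.

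Nearly every mammalian cell holds a molecular clock with a period of about a day. The proteins of Arntl (BMAL1) and Clock, or its relative Npas2, bind E-boxes in DNA as pairs and raise the transcription of their own repressors, the Per and Cry genes and Ciart (also called CHRONO). They also raise Nr1d1 and Nr1d2 (REV-ERB alpha and beta), nuclear receptors that repress Arntl and Npas2 through sites called RORE, and Dbp, which with its relatives Tef and Hlf binds D-boxes and carries the rhythm to output genes. Arntl and Npas2 therefore stand near the opposite phase from Dbp, Per3, Nr1d1 and Nr1d2 in peripheral tissues, the lung among them, where the clock is set by light through the brain, by feeding and by glucocorticoid hormones.

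The promoters of the members show which of these sites lie next to their starts. RefSeq promoter windows (build GRCm38.p6, 250 bases before to 50 after the annotated start) were at hand for 9 of the 10 members, 11 windows in all, and not for Per2. They were searched on both strands for the E-box CACGTG, the weaker E-prime box CACGTT, the D-box (TTATGTAA or TTACGTAA), the RORE (TAGGTCA or TGGGTCA) and the cyclic AMP response element, CRE (TGACGTCA). Of all 32851 windows in the table, 7.15% held the E-box, 4.68% the E-prime box, 1.06% a D-box, 6.45% a RORE and 1.79% the CRE. Among the members, Ciart held 3 E-boxes, the first Per1 window held 1 and both Tef windows held 1 each, Per3 held 2 D-boxes, Hlf held 1 CRE and Nr1d1 held 1 E-prime box. None of the 11 windows held a RORE, and the windows of Dbp, Nr1d2 and Npas2 held none of the 5 motifs. A match is a description of these letters only. The Ciart and Per3 windows and the first Per1 and Tef windows are printed 5′ to 3′ on the gene's strand. E-boxes and D-boxes are in capitals. These genes are the members whose windows hold the motif of the activators or of Dbp, Tef and Hlf.
Ciart (chr3:95882179-95882478, minus strand): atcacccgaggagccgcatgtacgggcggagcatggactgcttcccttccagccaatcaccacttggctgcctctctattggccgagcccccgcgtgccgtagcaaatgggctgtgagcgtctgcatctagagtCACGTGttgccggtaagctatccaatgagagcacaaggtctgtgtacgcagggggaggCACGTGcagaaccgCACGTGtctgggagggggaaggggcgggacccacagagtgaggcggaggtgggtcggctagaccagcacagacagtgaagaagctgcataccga
Per1 (chr11:69098699-69098998, plus strand): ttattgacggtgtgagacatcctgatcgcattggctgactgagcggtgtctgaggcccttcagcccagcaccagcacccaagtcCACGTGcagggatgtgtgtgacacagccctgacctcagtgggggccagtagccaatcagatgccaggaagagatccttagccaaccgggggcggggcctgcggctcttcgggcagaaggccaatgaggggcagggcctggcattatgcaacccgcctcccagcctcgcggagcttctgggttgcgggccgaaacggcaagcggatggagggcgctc
Per3 (chr4:151044616-151044915, minus strand): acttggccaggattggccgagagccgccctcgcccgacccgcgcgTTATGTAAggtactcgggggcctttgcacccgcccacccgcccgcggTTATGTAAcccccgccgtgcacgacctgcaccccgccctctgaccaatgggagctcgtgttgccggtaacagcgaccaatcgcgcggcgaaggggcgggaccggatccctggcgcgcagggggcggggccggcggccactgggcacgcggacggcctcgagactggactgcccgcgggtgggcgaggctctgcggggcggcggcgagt
Tef (chr15:81802423-81802722, plus strand): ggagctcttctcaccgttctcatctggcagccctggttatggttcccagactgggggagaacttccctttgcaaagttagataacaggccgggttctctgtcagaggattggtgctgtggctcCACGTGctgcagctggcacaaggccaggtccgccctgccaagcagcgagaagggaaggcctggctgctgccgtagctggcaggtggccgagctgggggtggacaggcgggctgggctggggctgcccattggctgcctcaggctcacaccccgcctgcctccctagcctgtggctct

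**Figure D1:**
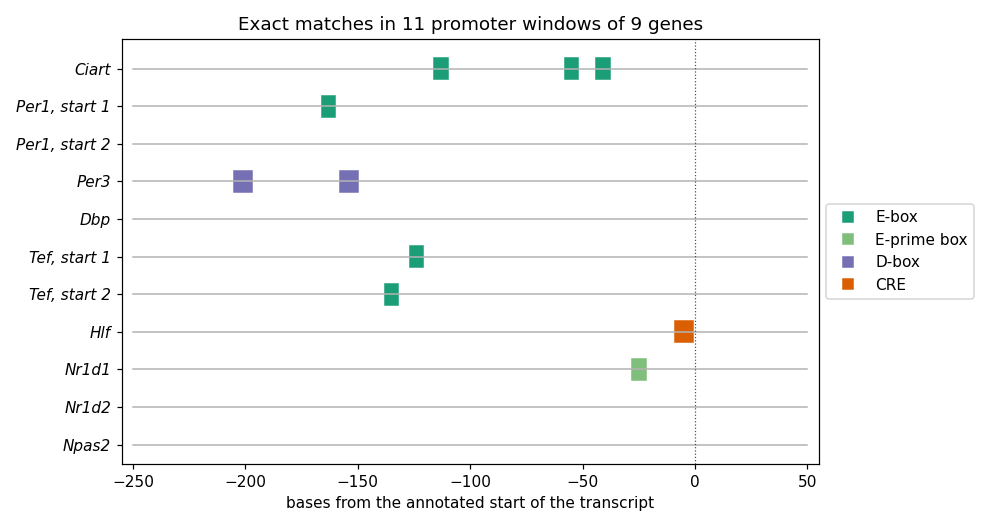
Positions of exact motif matches in the 11 promoter windows of 9 members, with the distance from the annotated start in bases on the horizontal axis and 1 line per window. Ciart has 3 E-boxes, Per3 has 2 D-boxes, and 4 windows hold no match.

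Lung markers were measured in all 60 lungs, with Sftpc of alveolar type 2 cells between 14.85 and 15.01, near the top of the scale, Foxj1 of ciliated cells between 7.20 and 8.76 and Marco of macrophages between 4.89 and 7.79. All mice are labelled male. Array 1 of the sham lungs of 0 h stood apart, with liver Alb at 14.02, skeletal muscle Acta1 at 11.43, Adipoq at 11.31 and Xist at 11.94 (6.02 or less in the other lungs), and array 3 of the exposed lungs of 24 h had the lowest Y-linked Eif2s3y (5.98), Kdm5d (5.69) and Uty (5.12). Heart muscle markers varied within every group. Both arrays were kept in, and without both the members called between exposed and sham lungs were the same genes as with them at 6 h and at 48 h and none at 96 and 168 h, while Nr1d1 was lost and Per2 gained at 0 h and Per2 and Nr1d2 were lost at 24 h. The 6 h shift described next then also passed for Per2 in both arms (9 and 8 members).

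The lungs taken at 6 h carried clock genes at another level than the lungs taken at the other times, in both arms. By their labels the 0, 24, 48, 96 and 168 h lungs were a whole number of days apart and the 6 h lungs 6 h past a whole day, so the 6 h group was compared with the mean of those 5 groups (the whole-day mean) within each arm. All values are log2 values from robust multi-array analysis (RMA), on which a difference of 1 is a doubling, and they are compared within a gene, not between genes. In sham mice 8 of the 10 members passed, 1 higher (Npas2) and 7 lower (Ciart, Per3, Dbp, Tef, Hlf, Nr1d1 and Nr1d2), against 7.67% of all genes (5.32% higher and 2.36% lower). In exposed mice 7 of the 10 passed, Npas2 higher and Per3, Dbp, Tef, Hlf, Nr1d1 and Nr1d2 lower, against 4.39% of all genes (2.28% higher and 2.12% lower). The median shift of the members was -0.92 in sham and -0.80 in exposed mice, beside 0.02 and 0.01 over all genes. Passing means an adjusted p under 0.05 in limma, in 1 fit over the 12 groups with Benjamini-Hochberg adjustment over all genes. Hour of day and time after the exposure cannot be told apart in this contrast, and in lung homogenate fewer cells of a type and less RNA per cell cannot be told apart.

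Of the outputs that bind D-boxes, Dbp moved furthest. Dbp was at 7.99, 8.31, 7.58, 6.99 and 7.57 in the 5 sham lungs of 6 h, and the other 25 sham lungs went from 9.08 through a median of 10.82 to 11.55. In exposed mice it was at 6.95, 7.20, 7.42, 6.94 and 7.06 at 6 h and between 7.53 and 11.48 in the other 25 lungs. No 6 h lung of either arm overlapped the other lungs of its arm. The shift was -2.98 (SE 0.26, limma adjusted p = 4.3e-12) in sham and -2.93 (SE 0.26, adjusted p = 3.9e-12) in exposed mice, so the level fell to 0.127 and 0.131 times the whole-day mean. Tef, the thyrotroph embryonic factor, shifted by -0.71 (SE 0.09, adjusted p = 6.3e-08) in sham and -0.78 (SE 0.09, adjusted p = 3e-09) in exposed mice, again without overlap, its 6 h lungs lying between 10.14 and 10.39 in sham and between 9.95 and 10.42 in exposed mice. Hlf, the hepatic leukemia factor, shifted by -0.53 (SE 0.15, adjusted p = 0.02) in sham and -0.81 (SE 0.15, adjusted p = 0.00044) in exposed mice, and its 6 h lungs overlapped the others in both arms. The sham call of Hlf was lost without 6 h array 1, 2 or 3 (adjusted p up to 0.084).

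Of the repressors that act on the activator pair, Per3 and Ciart moved and Per1 did not pass. Per3 was at 7.73, 7.87, 7.69, 7.53 and 7.40 in the sham lungs of 6 h and at 6.81, 7.49, 7.59, 7.34 and 7.39 in the exposed ones. These were below all other exposed lungs, of which the lowest was at 7.93, and overlapped the sham lungs through 1 lung at 7.84, array 1 of 168 h. The shifts were -1.13 (SE 0.13, adjusted p = 4.4e-08) in sham and -1.51 (SE 0.13, adjusted p = 3.2e-12) in exposed mice. Ciart was at 5.70, 5.68, 5.83, 6.08 and 5.76 in the sham lungs of 6 h, all below the lowest of the other 25 sham lungs (6.41), with a shift of -1.21 (SE 0.12, adjusted p = 7.6e-10). Its exposed lungs of 6 h, at 6.12, 5.87, 6.10, 6.54 and 6.13, lay within the range of the other exposed lungs (5.72 to 7.14), and the shift of -0.35 (SE 0.12) missed the threshold (adjusted p = 0.11). Per2 had shifts of -0.42 in sham and -0.45 in exposed mice (SE 0.15 each, adjusted p = 0.077 in each arm). Per1, which glucocorticoids also induce directly, had shifts of -0.13 (95% interval -0.61 to 0.35) and -0.20 (-0.68 to 0.28), neither past the threshold.

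The REV-ERB genes fell and Npas2, which they repress, rose. Nr1d2 was at 10.32, 10.80, 9.75, 10 and 9.86 in the sham lungs of 6 h and at 9.19, 9.38, 9.87, 8.67 and 9.29 in the exposed ones, while no other lung of either arm was below 10.66. Its shift was -1.79 (SE 0.13, adjusted p = 2.3e-15) in sham and -2.37 (SE 0.13, adjusted p = 9.4e-21) in exposed mice. Nr1d1 shifted by -1.93 (SE 0.22, adjusted p = 1.4e-08) in sham mice, where the 6 h lungs at 5.12 to 6.34 lay below the others, and by -0.99 (SE 0.22, adjusted p = 0.0031) in exposed mice, where they overlapped. Against the exposed 0 h lungs alone the Nr1d1 shift was -0.44 (adjusted p = 0.5). The exposed 0 h mean of Nr1d1 was 6.16, the lowest of the 5 whole-day means of that arm. Npas2 was at 5.66, 5.02, 6.25, 6.12 and 6.20 in the sham lungs of 6 h, and the other 25 sham lungs were between 3.40 and 4.76 apart from 1 at 5.71, array 1 of 168 h. In the exposed lungs of 6 h it reached 6.64, 7.19, 6.76, 7.23 and 7.23, all above the highest of the other 25 exposed lungs (5.57). The shifts were 1.81 (SE 0.21, adjusted p = 3.7e-08) in sham and 2.87 (SE 0.21, adjusted p = 9e-15) in exposed mice, which is 3.51 and 7.32 times the whole-day mean. The Npas2 means at the other times, 3.91 to 4.24 in sham and 3.78 to 4.92 in exposed mice, lay below the array medians (5.532 to 5.638). Folds of Npas2 against these groups, here and below, thus start from a low signal.

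Counted by overlap, the 6 h lungs stood apart from the other 25 lungs of their arm for Ciart, Dbp, Tef, Nr1d1 and Nr1d2 in sham mice, beside 0.165% of all genes. They did so for Per3, Dbp, Tef, Nr1d2 and Npas2 in exposed mice, beside 0.269% of all genes.

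**Figure D2:**
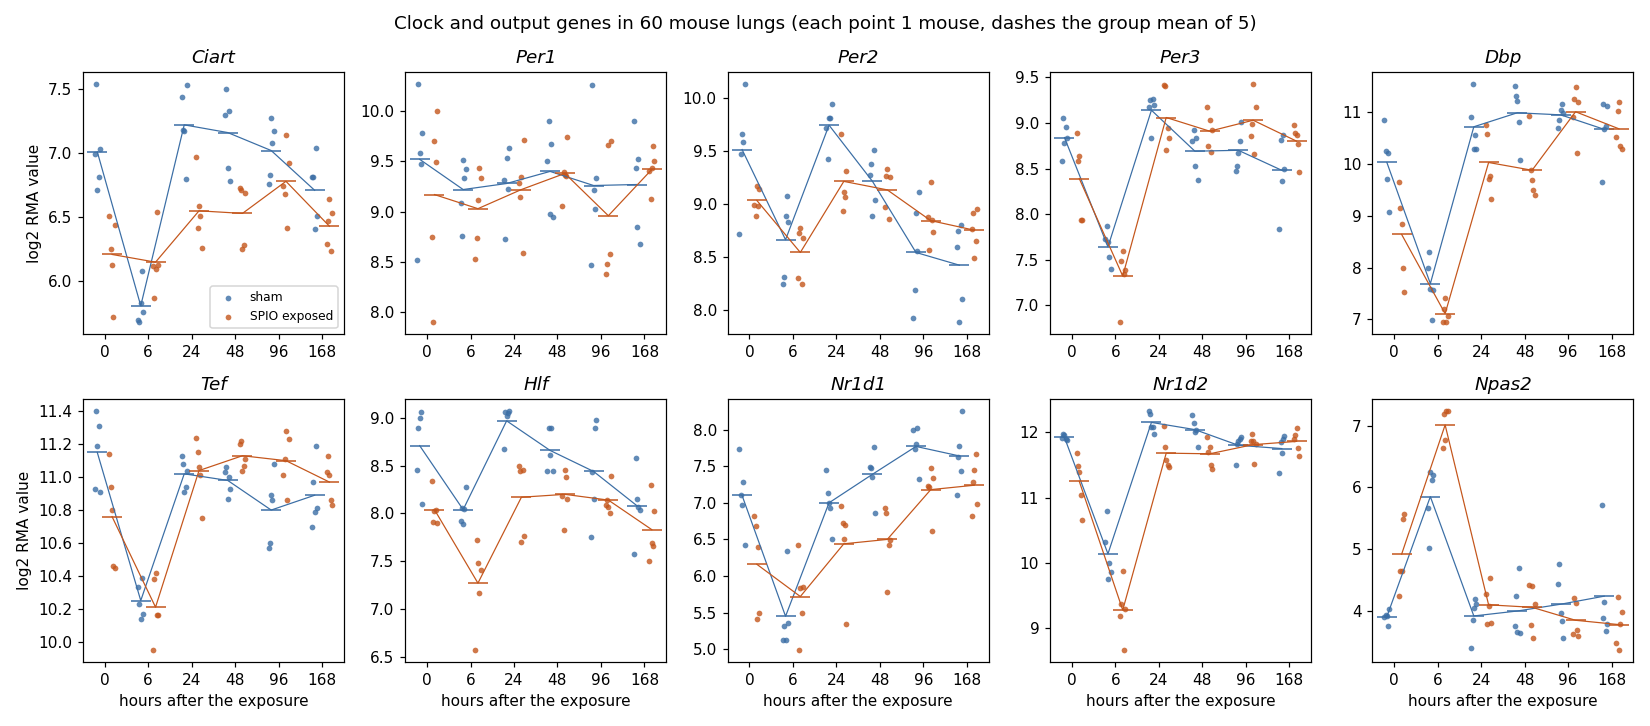
Levels of the 10 genes in 60 lungs, with the log2 RMA value on the vertical axis and the 6 times, evenly spaced, on the horizontal axis. Each point is 1 mouse, each dash the mean of 5, blue for sham and orange for SPIO exposed mice. Dbp, Per3, Tef and Nr1d2 dip at 6 h in both arms while Npas2 peaks there, and Ciart dips in the sham arm.

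In the main fit Ciart was the only member whose 6 h shift differed between the arms past the threshold. The test of the difference itself, the exposed shift minus the sham shift, gave 0.87 for Ciart (SE 0.18, limma adjusted p = 0.0042), and 1.47% of all genes passed. The exposed mean of Ciart was 6.15 at 6 h and 6.21, 6.55 and 6.53 at 0, 24 and 48 h, against sham means of 5.81, 7.01, 7.22 and 7.16. Npas2 (1.06, adjusted p = 0.056), Nr1d2 (-0.59, adjusted p = 0.08) and Nr1d1 (0.94, adjusted p = 0.11) missed the threshold. Of the 60 fits that left out 1 array, Npas2 passed in 13, Nr1d2 in 3 and Nr1d1 in 1, so that the count of members ran from 1 to 3, with 3 members called without sham 6 h array 4 or 5 or exposed 0 h array 5. Under the other settings the count ran from 1 to 4, and it was 3 against the mean of 24 to 168 h. For Dbp the shifts differed by 0.05 with a 95% interval from -0.69 to 0.78, and for Tef by -0.07 with an interval from -0.31 to 0.17.

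**Figure D3:**
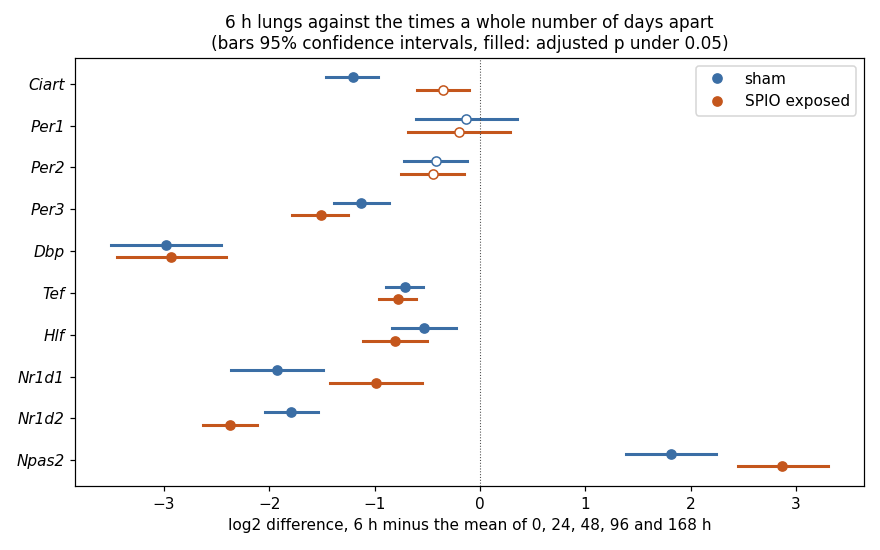
Shift of each gene at 6 h against the whole-day mean, as a log2 difference on the horizontal axis, for sham (blue) and exposed (orange) mice. Points are estimates, bars 95% confidence intervals, and filled points passed (8 of 10 in sham, 7 of 10 in exposed mice); Ciart has the arms furthest apart in relation to its error.

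At the end of the exposure (0 h) 7 of the 10 members differed between exposed and sham lungs, 6 lower (Ciart, Dbp, Tef, Hlf, Nr1d1 and Nr1d2) and 1 higher (Npas2), while 3.67% of all genes passed, 1.11% as lower and 2.56% as higher. The median member was at -0.57, beside 0.03 over all genes. Per2 (-0.48, adjusted p = 0.16), Per3 (-0.45, adjusted p = 0.13) and Per1 (-0.36, adjusted p = 0.57) had the same sign and did not pass.

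Among the outputs, Dbp at 0 h was at 10.86, 10.25, 9.72, 10.22 and 9.08 in sham and at 9.65, 9.16, 8.85, 8.0 and 7.53 in exposed lungs. The groups overlapped, and the exposed lungs reached from the sham 0 h range down into the sham 6 h range. Its difference was -1.39 (SE 0.34, limma adjusted p = 0.011; exact permutation p = 0.032, n = 5 per group, two-sided), or 0.382 times the sham level. Tef differed by -0.39 (SE 0.11, adjusted p = 0.032) and Hlf by -0.66 (SE 0.20, adjusted p = 0.043), both with overlapping groups, and with the mean of its 2 probe sets Hlf was at -0.48 and not called (adjusted p = 0.09).

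Ciart at 0 h was at 6.99, 7.54, 6.71, 6.81 and 7.03 in sham and at 6.51, 6.25, 6.13, 5.72 and 6.44 in exposed lungs, with every exposed lung below every sham lung. The difference of -0.80 (SE 0.16, adjusted p = 0.0024) came with the smallest exact p that 5 against 5 mice allow (0.0079). Nr1d2 was between 11.88 and 11.97 in the sham lungs and at 11.68, 11.48, 11.39, 11.04 and 10.66 in the exposed ones, again without overlap (-0.67, SE 0.16, adjusted p = 0.011). Nr1d1 differed by -0.94 (SE 0.28, adjusted p = 0.045). Npas2 was at 3.91, 3.93, 3.92, 3.75 and 4.03 in sham and at 4.24, 4.65, 4.64, 5.48 and 5.57 in exposed lungs, so that it was higher in all 5 exposed lungs (1.01, SE 0.27, adjusted p = 0.026), or 2.01 times the sham level, and at 0.52 with the mean of its 2 probe sets (adjusted p = 0.043). Ciart, Nr1d2 and Npas2 were the members whose groups did not overlap at 0 h, beside 4.25% of all genes.

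Each member had the sign at 0 h that it had in the sham lungs of 6 h. The sham 0 h lungs enter both of those comparisons, so the sham 6 h lungs were also set against the 24, 48, 96 and 168 h sham lungs, which the 0 h comparison does not use. Of the 7 members called at 0 h, all 7 had the same sign in that contrast: Dbp was at -3.14 there and -1.39 at 0 h, Nr1d1 at -2.0 and -0.94, Nr1d2 at -1.79 and -0.67, Ciart at -1.22 and -0.80, and Npas2 at 1.78 and 1.01. The sizes at 0 h were smaller than the 6 h shift for these 5, and Hlf had -0.50 there and -0.66 at 0 h. How many of all genes share their sign in this way was not counted, and several members are correlated with one another. The 6 temperature-sensitive genes described below also each had 1 sign at 0 h and in the sham shift from the whole-day mean. Hspa1a was at -2.49 and -1.87 and Cirbp at 1.02 and 1.66. A difference in the hour of sampling between the arms and an effect of the particles cannot be told apart, since the hours are not given.

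The 0 h calls rested on few mice. Without exposed array 5 the only member called was Ciart, and Dbp (adjusted p = 0.073) and Nr1d2 (adjusted p = 0.076) lost theirs then and in no other fit that left out 1 array. Npas2 lost its call without sham array 3 or 4 or exposed array 4 or 5 (adjusted p up to 0.11), Tef without sham array 2, 3 or 4 or exposed array 3, 4 or 5 (up to 0.13), Hlf without these or exposed array 2 (up to 0.13), and Nr1d1 without any of sham arrays 1 to 4 or exposed arrays 3 to 5 (up to 0.17). With only the 10 arrays of 0 h in the fit, 0 of the 10 passed in limma, with 9 at an unadjusted p under 0.05 and adjusted p between 0.059 (Ciart) and 0.23 (Tef) for the 7. Markers of lymphocytes moved with this comparison: the summed log2 level of 3 T cell markers (Cd3e, Cd3d and Lat) was 19.92 to 20.63 in sham and 21.43 to 22.62 in exposed lungs, and that of 2 B cell markers (Cd79a and Ms4a1) was 10.93 to 13.34 and 14.02 to 15.28, none overlapping. The sham 0 h means of the 2 sums, 20.35 and 11.58, were the lowest of the 12 groups. The exposed 0 h means, 21.98 and 14.46, lay within the range of the means of the other groups. The part of these markers in the result was not tested.

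**Figure D4:**
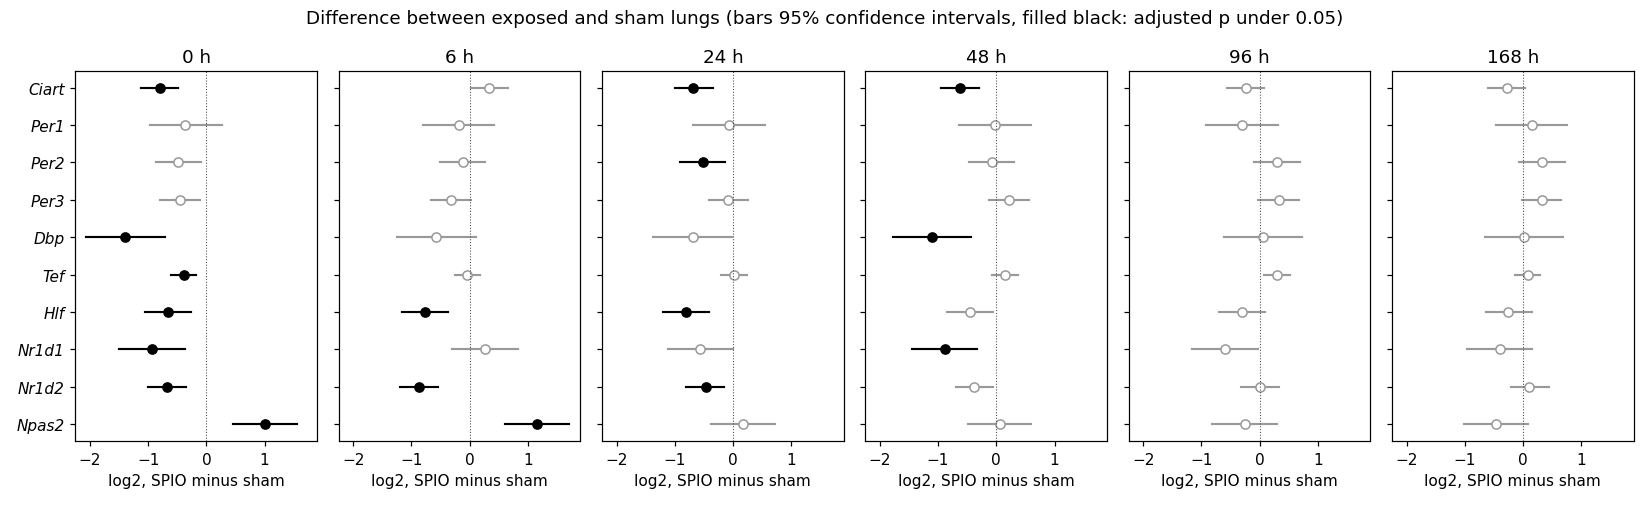
Difference between exposed and sham lungs for the 10 genes at each of the 6 times, as log2 on the horizontal axis, with points for estimates and bars for 95% confidence intervals. Black filled points passed, and their number by time is 7, 3, 4, 3, 0 and 0.

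At 6 h 3 of the 10 members differed between exposed and sham lungs, against 1.17% of all genes, 0.759% as higher and 0.407% as lower. Npas2 was higher in every exposed lung, with the values given above for the 6 h lungs (1.16, SE 0.27, limma adjusted p = 0.015). Hlf was at 7.92, 8.06, 7.89, 8.05 and 8.28 in sham and at 6.57, 7.72, 7.48, 7.17 and 7.41 in exposed lungs and did not overlap either (-0.77, SE 0.20, adjusted p = 0.03). Hlf and Npas2 stood apart beside 3.36% of all genes. Nr1d2 was lower by -0.87 (SE 0.16, adjusted p = 0.0011), with groups that overlapped through the exposed lung at 9.87, above the sham lungs at 9.75 and 9.86. Dbp (-0.58, SE 0.34, adjusted p = 0.53) and Ciart (0.34, SE 0.16, adjusted p = 0.37) did not pass. The call of Npas2 was lost without sham array 2 or exposed array 4 (adjusted p up to 0.11) and that of Hlf without sham array 2, 4 or 5 or exposed array 1 or 4 (up to 0.11), and with only the 10 arrays of 6 h in the fit Npas2 was the only member called. With the mean of the 2 probe sets of each gene Hlf was at -0.42 and not called (adjusted p = 0.22), and Npas2 was at 0.73 and called.

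At 24 h 4 members were lower in exposed lungs, Ciart, Per2, Hlf and Nr1d2, and none was higher. At this time 23.9% of all genes passed, 20.3% as higher and 3.66% as lower. Hlf was at 8.68, 9.06, 9.02, 9.05 and 9.07 in sham and at 8.50, 8.44, 7.70, 8.46 and 7.76 in exposed lungs, without overlap (-0.80, SE 0.20, adjusted p = 0.0023), where 11.4% of all genes did not overlap. With the mean of its 2 probe sets the Hlf difference was -0.37 and the call was lost (adjusted p = 0.11). Ciart was at 7.44, 7.18, 7.17, 6.80 and 7.53 in sham and at 6.97, 6.42, 6.59, 6.51 and 6.26 in exposed lungs (-0.68, SE 0.16, adjusted p = 0.0017). Per2 (-0.52, SE 0.19, adjusted p = 0.043) and Nr1d2 (-0.47, SE 0.16, adjusted p = 0.028) lay nearer the threshold. Per2 lost its call without sham array 1, 3, 4 or 5 or exposed array 2, 3 or 4 (adjusted p up to 0.12) and Nr1d2 without sham array 1 or 2 or exposed array 3, 4 or 5 (up to 0.072). Dbp (-0.69, adjusted p = 0.13), Nr1d1 (-0.56, adjusted p = 0.14) and Npas2 (0.18, 95% interval -0.37 to 0.72) did not pass.

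At 48 h Ciart, Dbp and Nr1d1 were lower in exposed lungs, while 12.5% of all genes passed, 10.7% as higher and 1.89% as lower. Dbp was at 11.51, 11.32, 11.22, 10.82 and 10.07 in sham and at 10.92, 9.88, 9.70, 9.49 and 9.41 in exposed lungs (-1.11, SE 0.34, adjusted p = 0.022). Ciart was at 7.30, 7.50, 6.88, 7.33 and 6.78 in sham and at 6.73, 6.71, 6.25, 6.28 and 6.69 in exposed lungs, without overlap (-0.63, SE 0.16, adjusted p = 0.0067), where 7.68% of all genes did not overlap. Nr1d1 differed by -0.89 (SE 0.28, adjusted p = 0.027). Dbp lost its call without sham array 1 or 3 or exposed array 4 or 5 (adjusted p up to 0.072) and Nr1d1 without sham array 1, 3 or 4 or exposed array 3, 4 or 5 (up to 0.11). Npas2 (0.06, 95% interval -0.49 to 0.60) and Per1 (-0.02, -0.64 to 0.59) did not pass.

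At 96 and 168 h none of the 10 members passed in limma, with 2 of them at an unadjusted p under 0.05 at 96 h and 0 at 168 h, and none passed under another setting with 1 value per gene. The brighter of the other 2 Tef probe sets was lower in exposed lungs at both times (-1.63 and -1.08, adjusted p = 5.5e-05 and 0.013 over all probe sets). At 96 h 1.41% and at 168 h 2.19% of all genes passed. Tef (0.30, unadjusted p = 0.0085, adjusted p = 0.17) and Nr1d1 (-0.60, unadjusted p = 0.039, adjusted p = 0.31) were the pair at 96 h. Dbp differed by 0.06 (95% interval -0.61 to 0.73) at 96 h and by 0.01 (-0.66 to 0.68) at 168 h, and Nr1d2 by 0.01 (-0.32 to 0.33) and 0.11 (-0.21 to 0.44). When the difference at 96 h or at 168 h was tested directly against that at 0 h, 0 of the 10 members passed in limma. In each of these tests 7 members had an unadjusted p under 0.05. The median change of the members was 0.62 at 96 h and 0.53 at 168 h, beside 0.02 and -0.02 over all genes. The share of all genes passing these tests is not given here, so the member counts have no background beside them.

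The difference between exposed and sham lungs changed over the 6 times for 4 of the 10 members, against 8.77% of all genes. These were Ciart, Tef, Nr1d2 and Npas2 in an F test of the interaction in limma, and the 6 differences of a gene spanned 1.14 for Ciart (adjusted p = 0.0054), 0.69 for Tef (adjusted p = 0.031), 0.98 for Nr1d2 (adjusted p = 0.014) and 1.62 for Npas2 (adjusted p = 0.011). Ciart had its one positive difference at 6 h (0.34), where the sham level was at its lowest, and between -0.80 and -0.24 at the other times. The step from 0 to 6 h in that difference was 1.14 for Ciart (SE 0.23, adjusted p = 0.0057), the only member called in that step, where 0.885% of all genes passed. Npas2 went from 1.01 at 0 h and 1.16 at 6 h to -0.46 at 168 h. That last difference, the low end of its span, includes 1 sham lung at 5.71. The other 4 sham lungs of 168 h lay between 3.67 and 4.14 and the exposed ones between 3.37 and 4.23. Tef lost its call here without sham 0 h array 2, 3 or 4, sham 96 h array 1 or exposed 0 h array 4 or 5 (adjusted p up to 0.072).

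Among the 5 whole-day times 3 of the 10 members differed in each arm, and 7 of the 10 in each arm had an unadjusted p under 0.05. Whether the arms differ in this was not tested. In sham mice these were Per2, Per3 and Hlf, where 38.1% of all genes differed, a larger share than among the members. Sham Per2 was at 8.71, 9.47, 9.66, 9.58 and 10.13 at 0 h, at 7.92, 8.19, 8.91, 8.55 and 9.11 at 96 h and at 8.59, 8.74, 7.88, 8.80 and 8.10 at 168 h. It was lower than at 0 h by -0.97 (SE 0.19, adjusted p = 0.00096) at 96 h, where 8.44% of all genes differed from 0 h, and by -1.09 (SE 0.19, adjusted p = 0.0014) at 168 h, where 1.38% did. The 96 h mice had been in plethysmographs and the 168 h mice in metabolism cages on liquid diet, which cannot be told apart from time. In exposed mice Dbp, Nr1d1 and Npas2 differed among the 5 times, where 2.82% of all genes did so. Exposed Dbp rose from 0 h to 10.90, 11.25, 11.48, 10.22 and 11.20 at 96 h (2.37, SE 0.34, adjusted p = 5.4e-06), and 6 of the members differed between these exposed groups (Ciart, Per3, Dbp, Nr1d1 and Nr1d2 higher and Npas2 lower at 96 h) beside 5.58% of all genes (4.21% higher and 1.37% lower). In the exposed spread Nr1d1 and Npas2 each lost the call in 7 fits that left out 1 array (adjusted p up to 0.072 and 0.16), and without exposed 0 h array 3 or 5, 96 h array 5 or 168 h array 3 only Dbp was called. In the sham spread Per3 lost its call without 24 h array 4 or 168 h array 1 (adjusted p up to 0.055), and the count was 6 without 0 h array 1 (Dbp, Tef and Nr1d1 added) and 5 without 48 h array 5 or 168 h array 4. Without exposed 0 h array 1 the exposed count was 5, with Per3 and Nr1d2 added.

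Some members, Dbp, Per3, Tef and Nr1d2 foremost, moved together from mouse to mouse as well as from group to group. Over the 60 lungs the Pearson correlation of Dbp with Nr1d2 was 0.91, with Per3 0.84, with Nr1d1 0.83, with Tef 0.79 and with Npas2 -0.86. After each value was taken relative to its group mean, which removes time and exposure, these became 0.74, 0.69, 0.50, 0.59 and -0.39. Per3 with Tef had 0.92 and 0.79, and Nr1d2 with Npas2 -0.93 and -0.49. Per1 stood aside, with correlations between -0.06 and 0.37 with the other members over the 60 lungs. Per2 had 0.15 with Dbp and -0.05 with Nr1d1 (-0.26 and -0.27 within groups), and 0.49 with Tef (0.31). Ciart had 0.66 with Tef (0.51 within groups), 0.67 with Nr1d2 (0.12) and -0.56 with Npas2 (0.04). Hlf with Nr1d1 had 0.38 and 0.05. These values are descriptions over lungs that share the array platform and its normalization, and no p is attached to them.

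Single mice carried the pattern across several members. Of the exposed lungs of 0 h, array 5 had the lowest Dbp (7.53) and Nr1d2 (10.66) and the highest Npas2 (5.57) and Arntl (8.57), while array 1 had the highest Dbp (9.65) and Nr1d2 (11.68) and the lowest Npas2 (4.24). Array 1 of the sham lungs of 168 h had the highest Npas2 (5.71) and Arntl (8.56) of its group together with the lowest Dbp (9.65), Per3 (7.84), Tef (10.70), Nr1d2 (11.38), Nr1d1 (7.10) and Hlf (7.58). That lung also had the highest Per1 (9.90) of its group, and its Ciart (6.81) and Per2 (8.59) were at the group medians. The other 4 sham lungs of 168 h had Npas2 between 3.67 and 4.14.

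**Figure D5:**
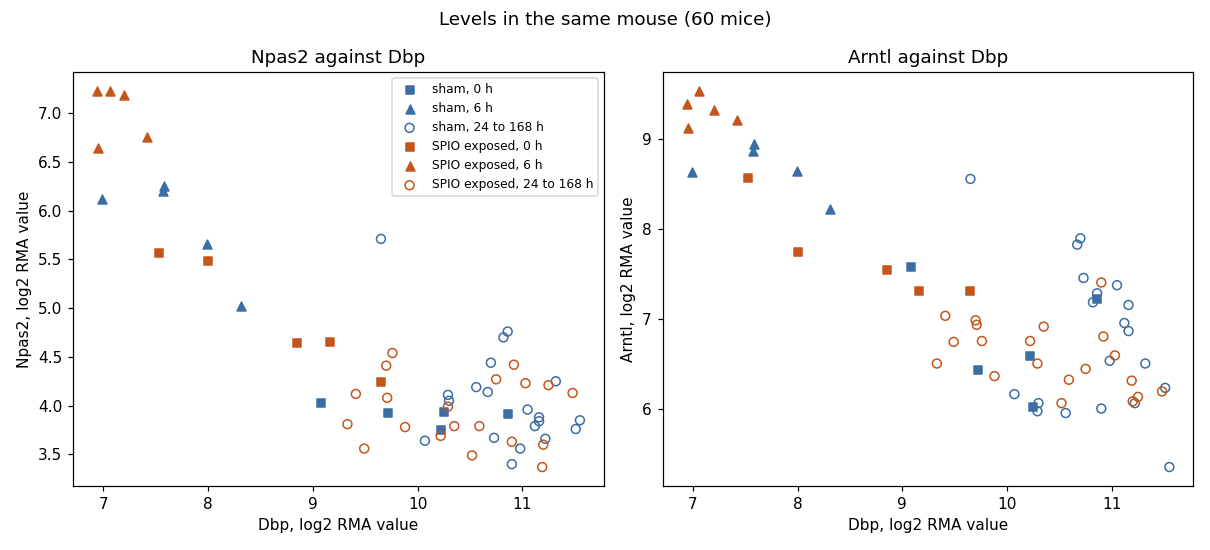
Npas2 (left) and Arntl (right) against Dbp in the same 60 lungs, all as log2 RMA values, with squares for 0 h, triangles for 6 h and open circles for later times, blue for sham and orange for exposed mice. The 6 h lungs lie at low Dbp and high Npas2, 1 sham lung of 168 h has Npas2 at 5.71, and the exposed 0 h lungs reach from the sham 6 h lungs (Dbp 7.53, Npas2 5.57) to the later lungs (Dbp 9.65, Npas2 4.24).

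Other parts of the loop were read from a list of 10 core genes, of which 9 were analysed here. At 6 h against the whole-day mean 4 of 9 passed in sham mice, 3 higher and 1 lower, and 4 of 9 in exposed mice, all higher. Arntl, the partner of Clock and Npas2, was higher by 1.89 (SE 0.21, adjusted p = 5.3e-09) in sham and 2.50 (SE 0.21, adjusted p = 4.5e-13) in exposed mice. Clock (0.25 and 0.50) and the repressor Cry1 (0.47 and 0.53) were higher in both arms, Nfil3, which represses at D-boxes, was higher in exposed mice (0.94), and Bhlhe40, a repressor at E-boxes, was lower in sham mice (-0.74). The list's median was 0.08 in sham and 0.12 in exposed mice, beside 0.02 and 0.01 over all genes.

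Between exposed and sham lungs Arntl passed at 3 times with unequal sign. It was higher by 0.93 at 0 h (SE 0.27, adjusted p = 0.035) and 0.72 at 24 h (SE 0.27, adjusted p = 0.04), and lower by -1.11 at 168 h (SE 0.27, adjusted p = 0.013), where the sham lungs at 6.96 to 8.56 stood above all exposed lungs (6.07 to 6.92). Bhlhe40 was lower at 24 h (-0.34, adjusted p = 0.032) and 48 h (-0.50, adjusted p = 0.0048), and 0 of the 9 core genes passed at 6 h (1 at an unadjusted p under 0.05) or at 96 h (3 at that level). The change of the difference over the 6 times passed for Arntl (span 2.04, adjusted p = 0.00087) and Bhlhe40 (0.73, adjusted p = 0.038).

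A second list of 10 clock regulators and outputs, 9 of them analysed here, had 3 genes past the threshold in the 6 h shift of each arm. Klf10 was lower at 6 h in both arms (-0.58 in sham, adjusted p = 0.0016, and -0.55 in exposed mice, adjusted p = 0.0039). Timeless (-0.42) was lower and Fbxl21 (0.38) higher in sham mice, and Wee1, a cell cycle kinase (-0.73), and the deubiquitinase Usp2 (-0.71) were lower in exposed mice. At 24 h the casein kinases Csnk1d (0.42) and Csnk1e (0.24), which phosphorylate PER proteins, and Btrc (0.25) were higher in exposed lungs, and at 48 h Csnk1e was (0.25). Of all genes, 20.3% passed as higher at 24 h and 10.7% at 48 h. The sham mean of Csnk1d was 11.06 at 24 h and between 11.25 and 11.52 at the other times, beside 11.48 in exposed lungs at 24 h. No gene of this list passed between exposed and sham lungs at 0, 6, 96 or 168 h in limma, with 4, 3, 2 and 1 of 9 at an unadjusted p under 0.05. The difference between exposed and sham lungs changed over the 6 times for 5 of the 9, with spans of 0.60 for Csnk1d, 0.39 for Csnk1e, 0.75 for Usp2, 0.59 for Nampt and 0.68 for Wee1 (adjusted p between 0.022 and 0.049).

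Over the whole array, the gene most opposite to Dbp was Rasl11a, a Ras-like protein. Its Pearson correlation with Dbp over the 60 lungs was -0.90, and -0.53 within groups. Next came Spaar (-0.88, within groups -0.42), Adm, the gene of adrenomedullin (-0.88 and -0.63), Ahcyl2 (-0.86 and -0.67), Dtx4 (-0.83 and -0.46), Arntl (-0.82 and -0.52), Hs3st6 (-0.78 and -0.18) and Ikzf4 (-0.75 and -0.46). Of non-members most like Dbp, Tex11 had 0.81 (0.54 within groups), Rsad1 0.74 (0.50), Alas1, the first enzyme of heme synthesis, 0.72 (0.20), Tspan4 0.71 (0.37), Bhlhe40 0.70 (0.40), Zfp346 0.70 (0.71), Fkbp11 0.69 (0.62) and Ptgr1 0.66 (0.39). Zfp346 and Fkbp11 kept nearly their whole correlation within groups, Alas1 and Hs3st6 little of it.

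A gene's other probe sets did not always follow the one that stood for it. The 10 members had 23 probe sets in all, and the one with the highest mean over the 60 arrays stood for each gene. The second Dbp probe set gave -2.91 and -2.62 for the 6 h shift in sham and exposed mice and -1.49 for the 0 h difference, all past the threshold over all probe sets. Of the other 2 Tef probe sets, the brighter one was lower in exposed lungs at all 6 times, between -0.86 at 48 h and -1.90 at 24 h, with adjusted p between 2.5e-06 and 0.048 over all 45037 probe sets, whereas the probe set that stood for Tef passed at 0 h alone and the dimmest one at no time (-0.17 to 0.16). For Hlf, the second probe set passed at none of the 6 times (-0.31 to 0.45) yet had 6 h shifts of -0.53 and -0.72 that passed. The second Npas2 probe set had 6 h shifts of 0.36 and 0.63 and passed between arms at no time (0.03 at 0 h and 0.30 at 6 h). Each of the 5 further Per3 probe sets had a negative shift at 6 h in both arms, and 4 of the 5 passed. The second Nr1d2 probe set passed at 0 h (-0.82, adjusted p = 0.034) and not at 6 h (-0.62, adjusted p = 0.17) or 24 h (-0.58, adjusted p = 0.069). Its 6 h shifts of -1.36 and -1.44 passed. The other Per2 probe sets were at -0.57 and -0.44 at 24 h. Over all probe sets, those that stood for Hlf and Nr1d1 at 0 h (adjusted p = 0.052 and 0.054) and Per2 at 24 h (0.055) missed the threshold.

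A pair of further lists was set beside the members, since hormone and temperature also set the clock. None of 10 genes that glucocorticoids induce, such as Fkbp5 and Tsc22d3, passed between exposed and sham lungs at any of the 6 times in limma (2, 1, 0, 0, 3 and 3 at an unadjusted p under 0.05, in order of time, with Fkbp5 at -1.24 and an adjusted p of 0.085 at 0 h), and none in the 6 h shift of either arm (1 in each). Of 7 temperature-sensitive genes 6 were measured (Rbm3 was not named here). At 0 h the heat shock genes Hspa1a (-2.49, adjusted p = 0.004), Hspa1b (-2.04), Dnajb1 (-1.16) and Hsp90aa1 (-0.85) were lower in exposed lungs, and at 24 and 48 h all 5 heat shock genes were lower and Cirbp, which is induced by cold, was higher. At 6 h 0 of the 6 passed (5 at an unadjusted p under 0.05) while 3 members did, with Hspa1a at 1.33, Hspa1b at 1.52 and Cirbp at -1.02. At 96 and 168 h, where no member passed, Hsp90aa1 was lower (-1.15, adjusted p = 0.001, and -1.03, adjusted p = 0.003). In the 6 h shift the arms went apart, with 4 heat shock genes lower and Cirbp higher (1.66) in sham mice and Hspa1a (1.36), Hspa1b (1.6) and Dnajb1 (0.61) higher in exposed mice, while Dbp, Per3, Tef and Nr1d2 fell in both. Their part in the members' results was not tested.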

How the data were processed

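The authors hybridized lung RNA of 60 mice, 1 array per mouse, and deposited log2 values made by robust multi-array analysis (RMA), per the labels. For the RMA software a version was not given in the sources used here. Nothing was normalized again. Of 45037 probe sets, controls left out, 34945 carried 1 gene symbol, 932 several and 9160 none. Each of 18193 genes was represented by its brightest probe set on average over all arrays. Array medians lay between 5.532 and 5.638 and arrays correlated at 0.9726 to 0.9962. The number of arrays sets the precision.

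Groups came from the labels, where nothing links mice across groups. A fit over the 12 groups (limma 3.58.1 in R 4.3.3, 48 residual degrees of freedom) gave all differences, p-values were adjusted by Benjamini-Hochberg across the genes, and the threshold was 0.05. It was tested on simulated data. Exact permutation tests of single genes enumerated the 252 divisions of 10 mice and were two-sided. Members were all named, other genes where they passed on a list or were among the 8 most like or most opposite to Dbp. The members and lists were chosen with earlier results of these data known. Promoters came from RefSeq (GRCm38.p6). Alternatives were leaving out each array, testing every probe set, averaging probe sets per gene, a filter (log2 above 6 in 5 arrays), repeated quantile normalization, median centring, robust moderation with a trend, weighted arrays, the replicate number as a block, fits of the contrast's groups alone, the methods' test, the 6 h group against other baselines, and leaving out 2 doubted arrays.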

Additional observations from a re-analysis of the deposited data

Results flagged for a closer look

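In 7 of the 120 pairs of member and group, 1 of the 5 mice lay far from the other 4 by Dixon's criterion (critical value 0.71), which chance gives in about 1 in 20 groups. Per3 in sham lungs of 24 h was at 8.83 in array 3 and between 9.18 and 9.26 in the others. Hlf in the same group was at 8.68 in array 1 and between 9.02 and 9.07 in the others. Nr1d1 was apart in 3 groups, at 6.34 in array 4 of the sham lungs of 6 h (others 5.12 to 5.36), at 5.34 in array 5 of the exposed lungs of 24 h (others 6.50 to 6.96) and at 6.62 in array 4 of the exposed lungs of 96 h (others 7.22 to 7.47). Nr1d2 in sham lungs of 96 h was at 11.50 in array 1 (others 11.82 to 11.93). Npas2 in sham lungs of 168 h was at 5.71 in array 1 (others 3.67 to 4.14).

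Differences that themselves differed by time were found for Ciart (1.14), Tef (0.69), Nr1d2 (0.98) and Npas2 (1.62), each value being the span of the 6 differences between exposed and sham lungs in the limma test of the interaction. Ciart also differed between the arms in its 6 h shift (0.87) and between 0 and 6 h in its exposed minus sham difference (1.14).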

How the results depend on the processing

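Over 7200 member results that left out 1 array, 0 changed sign past the threshold, 80 lost and 65 gained a call. Over 1300 results under the other alternatives 1 reversed, 37 lost and 53 gained a call. The reversal was Tef between exposed and sham lungs at 24 h, at -0.63 with the mean of its probe sets (adjusted p = 0.00036) in place of 0.02. Leaving out 1 array, the counts of members ran from 1 to 7 at 0 h, 1 to 3 at 6 h, 2 to 4 at 24 h, 1 to 3 at 48 h and 0 to 0 at 96 and 168 h, from 7 to 9 in the sham and 7 to 8 in the exposed 6 h shift, from 1 to 3 for the difference of the shifts, from 2 to 6 in the sham and 1 to 5 in the exposed spread, and from 3 to 6 for the change over time.
Fitted on the contrast's own groups, the count was 0 at 0 h (9 at an unadjusted p under 0.05), 1 at 6 h (Npas2) and 5 in the sham spread. The methods' test, run between exposed and sham lungs, gave 2 at 24 h (Ciart and Hlf) and 1 at 48 h (Ciart). Averaging probe sets gave 2 for the difference of the shifts and 2 for the change over time, the filter on low values gave 2 for the difference of the shifts, repeated quantile normalization 5 in the sham spread, and median centring 5 at 48 h, 2 for the difference of the shifts and 6 in the sham spread. Array weights gave 4 for the difference of the shifts, 7 in the sham spread and 8 for the change over time. Against the mean of 24 to 168 h the difference of the shifts gave 3. Without both doubted arrays the count was 2 at 24 h and 6 in the sham spread. The cause of these changes was not tested. The replicate block gave 2 for the difference of the shifts (Ciart and Nr1d2) and moved no other count by over 1.5 times. The numbers only name mice, since same-numbered lungs correlated between -0.508 and 0.466 in their deviations from the group means, and at most 1 of 5 lungs per time correlated best with its own number. The difference of the shifts and the change over time use all 12 groups, so a fit on their own groups is the same fit.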
